A study of Zostera marina with 23 samples.

Results

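In eelgrass, Zostera marina, 192 of the 22733 gene identifiers measured stood high in leaf and in female flower and low in root and in male flower. They were chosen from the measured values themselves. For each gene the values were put on the scale log2(value + 1) and the median was taken over the libraries of each of the 4 tissues, and the widest gap in the ordered medians had to leave exactly leaf and female flower above it. The lower of these medians had to be at least 6, the gap at least 2, and the medians of the early and the late female flower had to lie within 2 of each other. Identifiers beginning ZosmaC or ZosmaM, 196 in all, were not considered. The pattern itself was met by 544 genes, 450 of them also reached the level, 195 also had the gap, and 3 of those were set aside for their difference between stages. The choice was to end at the 200 widest gaps, and with 192 genes that limit was not reached.

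Eelgrass is a flowering plant that lives submerged in seawater, with ribbon-shaped leaves that photosynthesise and roots that grow in sediment poor in oxygen. Male and female flowers stand on the same spadix inside a leaf-like sheath, and the pollen is thread-shaped and carried by the water. Carpels, which make up the female flower, are counted as modified leaves, and male flowers consist mainly of anthers with their pollen. No gene names stand beside the identifiers in the files, so the role of each gene is not given here, the tissue labels could not be checked against marker genes, and the genes are described by level and pattern.

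The study compared leaf (n = 6, titled vegetative), root (n = 4), male flower (n = 7) and female flower, the last at an early (n = 3) and a late (n = 2) time point of its development. A further female library has a title that says early and a tissue label that says late. The choice of genes took it among the 6 female libraries and as late in its limit on stage, and the fitted model and the counts of libraries without overlap between stages leave it out. All shoots were collected at 1 beach in winter and kept in aquaria, at first in water of 5 °C with 12 hours of light, later at 15 °C with 16 hours of light as in summer, so that they flowered. The labels name neither genotypes nor separate plants for the replicates, nor which parts of the flower a sample held. In such bulk samples, fewer cells of a type and less RNA per cell cannot be told apart.

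Values are scaled fragments, the fragment count of a gene multiplied by 1 factor per library. Depth was estimated by dividing the sum of a library by the step between its values, which gave 5696800 to 13679081 fragments in genes per library. Fragment numbers per gene given below rest on the same estimate. Some libraries stood apart from others of their tissue in other sets of genes. By the same rule, without its limit on stage, 562 genes were high in leaf alone, 457 in female flower alone, 781 in root alone and 1555 in male flower alone. Chosen without the library being measured, the genes of female flower alone took 3.66%, 1.51% and 3.12% of all scaled fragments in leaf replicates 1, 2 and 4, and 0.0702% to 0.0852% in leaf replicates 0, 3 and 5. The root-alone genes took 3.75% and 5.00% in leaf replicates 1 and 4 and 0.287% to 0.488% in the other leaf libraries. Leaf-alone genes took 5.11% in root replicate 2, against 0.750% to 2.09% in the other roots, and root-alone genes took 4.45% there, against 13.3% to 14.5%. Female-alone genes took 1.48% and 1.30% in root replicates 0 and 1, and 0.0906% and 0.101% in root replicates 2 and 3. Male-alone genes took 35.4% in male replicate 5, against 54.6% to 62.9% in the other male libraries. In early female replicate 0 they took 5.60%, against 3.79% to 4.17% in the other female libraries. Some results below are also given without leaf replicates 1, 2 and 4, or without 5 libraries. These 5 were leaf replicates 1 and 4, root replicate 2, male replicate 5 and early female replicate 0. No result leaves out root replicates 0 and 1 together.

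The first view of the 192 genes is their level in every library. In leaf the tissue median of a gene ranged from 77.0 to 19926 scaled fragments, with a middle value over the genes of 708. In female flower it ranged from 66.5 to 6707, with a middle value of 382. The corresponding middle values were 33.4 in root and 34.2 in male flower. High in leaf and female flower only therefore describes a gap and not an absence elsewhere: 169 of the 192 genes had at least 3 fragments in every root library and 121 in every male library, and none was at 0 throughout either tissue. The gap had a median of 2.75 on the log2 scale, with 77 genes at 3 or more, 20 at 4 or more and 5 at 5 or more.

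**Figure D1:**
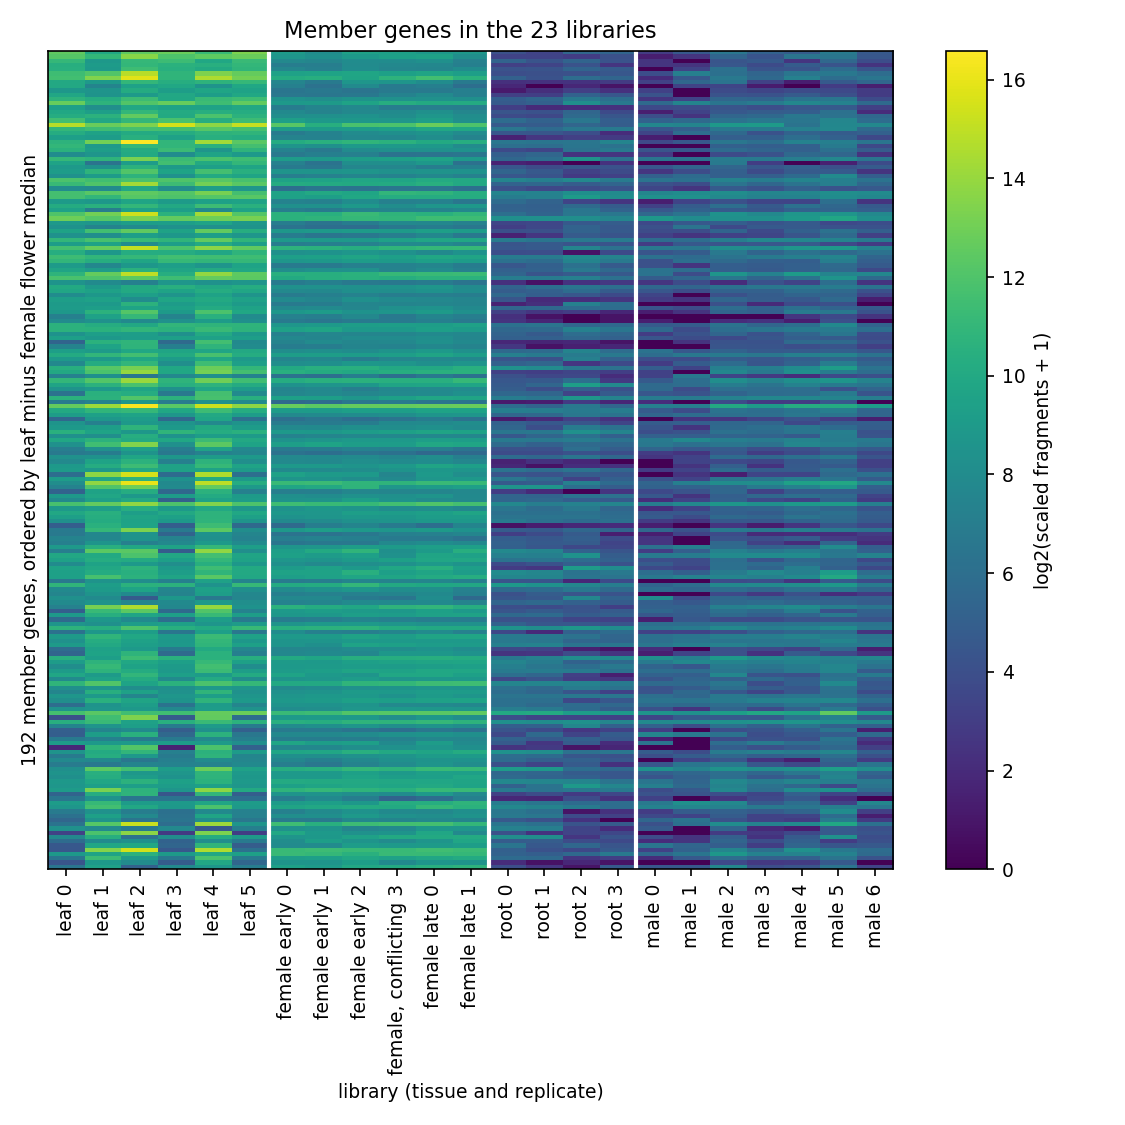
Heat map of log2(scaled fragments + 1) for the 192 genes (rows, ordered from the largest to the smallest difference of the leaf and female medians) in the 23 libraries (columns, white lines between tissues). Female libraries look alike, root and male libraries are low, and leaf replicates 1, 2 and 4 are brighter than leaf replicates 0, 3 and 5 for many genes.

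Because these values chose the genes, their contrasts are given as a description. All 12 leaf and female libraries lay above all 11 root and male libraries for 142 of the 192 genes, and this held for 2.35% of the 17423 genes tested. The 6 female libraries lay above all root and male libraries for 173 genes, against 10.1% of the genes tested, and the 6 leaf libraries for 151, against 5.33%. Where the ranges overlapped, leaf replicates 0 and 3 reached down into the low tissues most often, for 30 genes each, and male replicate 5 reached up most often, for 27 genes. Shares of all genes tested were not taken for single libraries, so nothing is read from these counts. All 192 genes passed the filter on low values, as their levels in leaf and female flower made sure. The limma model was fitted across all genes tested, and a gene was called where it changed by 2-fold or more with an adjusted p (Benjamini-Hochberg) under 0.05. Leaf was called above root for 186 of the 192 genes, where 11.2% of all genes tested were so called, and above male flower for 192, where 24.5% were. Female flower was called above root for 187, where 15.4% of all genes were, and above male flower for 191, where 26.2% were. In all 4 of these contrasts 183 were called, against 3.08% of the genes tested. The median log2 fold change over the 192 genes was 4.37 for leaf against root, 4.48 for leaf against male flower, 3.38 for female flower against root and 3.43 for female flower against male flower. These comparisons share their libraries and the choice of genes used them, so nothing is read from the counts. Without leaf replicates 1, 2 and 4, 143 genes had no overlap and 162 were called in all 4 contrasts, where 2.7% and 2.76% of the genes tested were. Without leaf replicates 1 and 4, root replicate 2, male replicate 5 and early female replicate 0 these counts were 157 and 171, where 3.75% and 3.07% of the genes tested were. Both sets of libraries were picked after their values were seen.

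The thresholds cut through a continuum of gap and level. The 3 narrowest gaps taken were 2.02, 2.02 and 2.02, and the 3 widest gaps of genes left out were 1.98, 1.97 and 1.97. The lowest upper medians taken were 6.08, 6.22 and 6.28, and those just left out were 5.99, 5.92 and 5.90. The limit on stage was different, since the largest differences taken were 1.47, 1.35 and 1.23, and the 3 genes left out differed by 2.94, 3.51 and 8.73.

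The genes with the widest gaps show how different the leaf values of 2 members can be. Zosma11g00270 had the widest gap, 6.38. Its root libraries stood at 3.99, 0.747, 0 and 0.814 scaled fragments for replicates 0 to 3, and its male libraries ran from 0 to 11.9 with a median of 0. The 3 early female libraries held 156, 138 and 218, the 2 late ones 177 and 133, and the library of conflicting stage labels 101. Female flower was thus even, and clear of every root and male library. In leaf, replicates 0, 3 and 5 held 152, 170 and 256 scaled fragments, close to female flower, while replicates 1, 2 and 4 held 708, 2102 and 1456. With a pseudocount of 10 the gap was 3.86.

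Zosma165g00110 came next, with a gap of 6.27, and its leaf libraries stood in another order. Leaf replicates 0, 3 and 5 held 784, 2991 and 2049 scaled fragments, and replicates 1, 2 and 4 held 80.6, 562 and 1077, so that replicate 1 was lowest and replicate 3 highest. Its early female libraries held 152, 78.1 and 289, its late ones 465 and 73.3, and the library of conflicting labels 302. The root libraries lay between 0 and 4.07. Male flower ran from 0 to 108 with a median of 1.70, and the value of 108 in male replicate 2 exceeded 3 of the 12 leaf and female values, so the groups overlapped. With a pseudocount of 10 its gap was 4.23.

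Levels between genes are compared per length, in FPKM, fragments per kilobase of transcript as deposited. For the named genes the ratio of FPKM to scaled fragments changed little in most libraries. Zosma116g00700 stood at 416 FPKM and 6923 scaled fragments in early female replicate 0, and at 5122 and 86619 in leaf replicate 2. FPKM therefore carries about the same factor per library, and tissues compared in FPKM share the deposited scaling. The middle of the 192 genes stood at 69.8 FPKM in leaf, 29.4 in female flower, 2.57 in root and 2.93 in male flower. In leaf 66 genes reached 100 FPKM and in female flower 21 did, and none did in root or male flower. Among all identifiers, 8 of the 192 were within the 100 most abundant of leaf and 53 within the 1000 most abundant, and for female flower these numbers were 1 and 26. As a group they were abundant in leaf, at the 91.4th percentile in the middle, and less so in female flower, at the 83.4th. The rule asked for a high median in both tissues and lower ones in root and male flower. These levels and ranks therefore follow in part from the choice. Gene length, as given by the ratio of scaled fragments to FPKM, was 0.866 times that of all genes tested at the median, with quartiles of 0.621 and 1.36.

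Zosma152g00070 was the most abundant member per length. In leaf it stood at a median of 4490 FPKM, from 1345 to 9163, and in female flower at 773 FPKM, from 263 to 1304. In root its 4 libraries held 5.27, 5.89, 9.47 and 6.05 FPKM, and in male flower the median was 48.9 FPKM, from 15.9 to 107. The ranges of the 4 tissues did not overlap, in the order leaf, female flower, male flower and root. Leaf replicates 0, 3 and 5 were high for this gene, at 6073 to 9163 FPKM, and replicates 1, 2 and 4 lower, at 1345 to 2907 FPKM. Zosma116g00700, the next, stood at a median of 949 FPKM in leaf, from 313 to 5122, and at 407 FPKM in female flower, from 324 to 431. Its female libraries were close to each other, while leaf replicates 2 and 3 marked the ends of a wide leaf range.

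A few genes carried much of the total, and the leading gene differed between libraries. The 10 leading members took 31.4% to 54.0% of the scaled fragments of the 192 genes in a leaf library and 23.8% to 28.0% in a female library. Zosma152g00070 led in leaf replicates 0, 3 and 5, with 14.3%, 20.6% and 12.5%, and Zosma116g00700 led in leaf replicates 1 and 4, with 5.00% in the former. In leaf replicate 2 another member led, with 9.81%. In female flower Zosma116g00700 led in every library, with 5.18% to 6.41%, except late replicate 0, where Zosma152g00070 led with 4.72%.

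**Figure D2:**
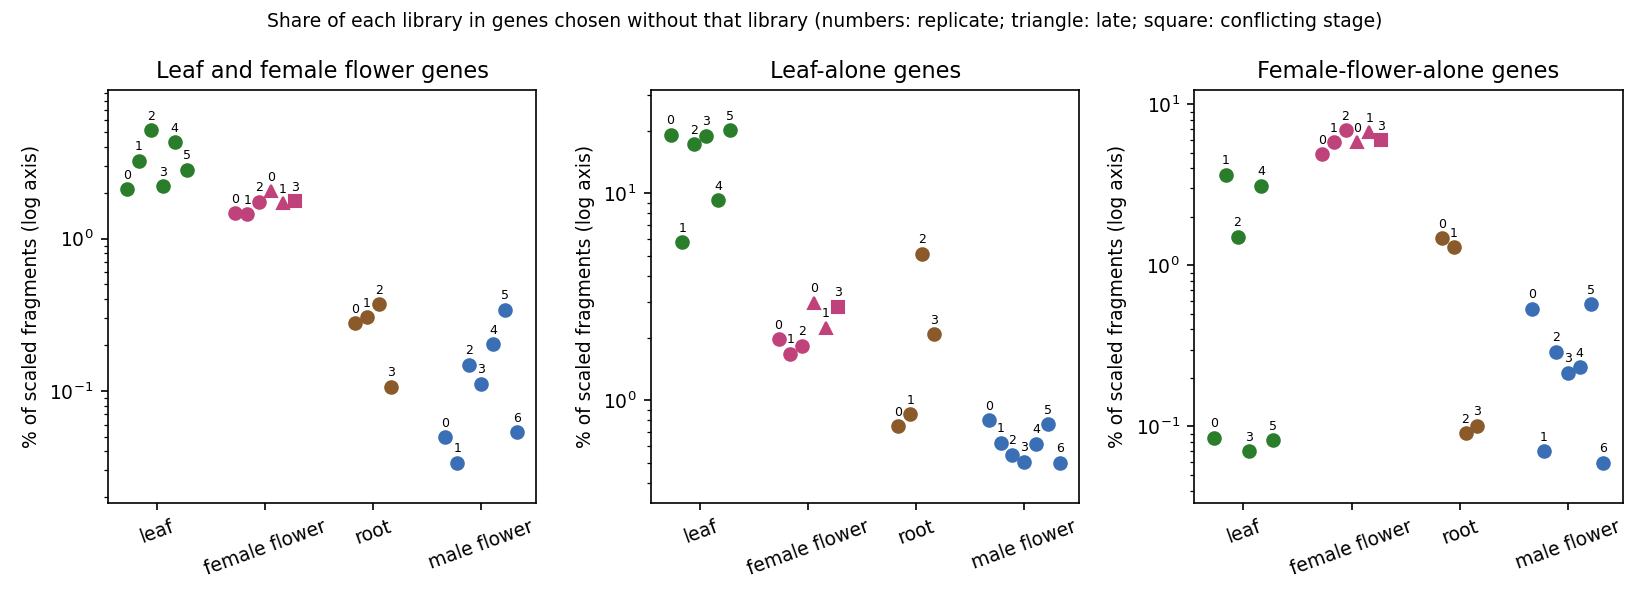
Percentage of all scaled fragments of each library (log axis, numbers give the replicate, triangles are late and the square the female library of conflicting labels) in genes chosen without that library, for the leaf and female flower genes, the leaf-alone genes and the female-flower-alone genes. Leaf replicates 1, 2 and 4 are highest of the leaf libraries in the first panel, at 3.25% to 5.14%, and in the third, at 1.51% to 3.66%.

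To measure the genes in libraries that had no part in choosing them, the choice was repeated without each library in turn and the share of that library in the genes so chosen was taken. Such a share does not depend on the factor of the library. It was 3.30% ± 1.20 in leaf (SD, n = 6), 1.69% ± 0.223 in female flower (n = 6), 0.265% ± 0.113 in root (n = 4) and 0.134% ± 0.109 in male flower (n = 7). Every leaf and female library, from 1.45% upward, lay above every root and male library, the highest of which were root replicate 2 at 0.371% and male replicate 5 at 0.340%. Within female flower the early libraries held 1.47%, 1.45% and 1.74%, the late ones 2.05% and 1.70% and the library of conflicting labels 1.76%. Within leaf, replicates 0, 3 and 5 held 2.10% to 2.83%, and replicates 1, 2 and 4 held 3.25%, 5.14% and 4.29%. Between leaf and female flower the order at the edge depended on the set of genes: late female replicate 0 stood just below leaf replicate 0 here, and just above it, at 2.15% against 2.12%, when the same 192 genes were summed in both. The number of genes chosen ranged from 159, without leaf replicate 1, to the limit of 200, so the sets differ between libraries. No p is given for a score over chosen genes.

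The shares of the other gene sets in the same leaf libraries stood as follows. Leaf-alone genes took 19.2%, 19.0% and 20.1% in leaf replicates 0, 3 and 5, and 5.81%, 17.3% and 9.29% in replicates 1, 2 and 4. The shares of female-alone genes given above were higher in the latter libraries. Whether the content of these leaf libraries accounts for the higher values was not tested. When leaf replicates 1, 2 and 4 were left out together, 148 genes met the rule and 144 of the 192 were among them. Without the 5 libraries listed before, 170 genes met it and 138 of the 192 were among them.

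The rule used the median of a tissue and did not set the order of the libraries within it. A gene high in only some leaf libraries can still pass through them. That order is therefore not independent of the choice, and the shares are a description. Among the leaf libraries, replicate 4 held the highest value for 79 of the 192 genes and replicate 2 for 72, a sum of 151 genes or 78.6%. Over all genes tested, these libraries held the highest leaf value for 32.4%. Leaf replicate 1, the highest leaf library for 31.3% of all genes tested, was the highest for 8 of the 192. The lowest leaf value fell in replicate 3 for 30.2% of the 192 genes, against 12.8% of all genes tested, in replicate 0 for 29.2%, against 24.04%, and in replicate 1 for 24.5%, against 30.0%. In male flower, replicate 5 was highest for 94 of the 192 genes, against 30.8% of all genes tested, and it is the library with the smallest share of male-alone genes. Male replicate 0 was lowest for 40.6% of the 192 genes, against 18.2% of all genes tested, and male replicate 1 for 32.8%, against 24.2%. Male replicate 1 had the fewest fragments, 5696800, and the largest factor, 4.52, so 3 fragments stand at 13.6 scaled fragments there. Genes of few fragments can stand at 0 in it, and how far this sets the order was not tested. In root, replicate 2 was highest for 82 of the 192 genes, or 42.7%, and for 33.9% of all genes tested, and replicate 0 for 35.9% and 33.7%. The lowest root value fell in replicate 3 for 37.0% of the 192 genes, against 16.2% of all genes tested, and in replicate 2 for 18.2%, against 39.0%.

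**Figure D3:**
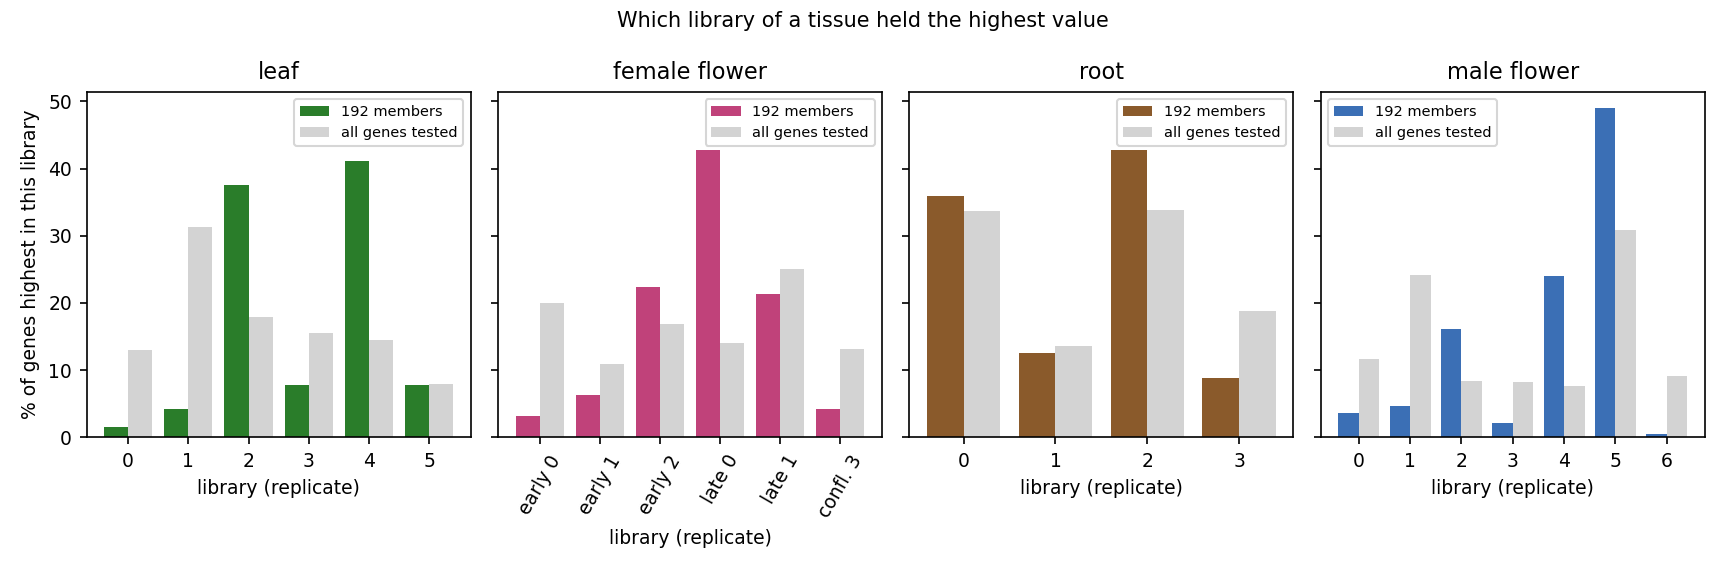
Percentage of genes whose highest value within a tissue fell in each library, for the 192 genes (coloured bars) and all 17423 genes tested (grey bars). In leaf, replicates 2 and 4 stand at 37.5% and 41.1% for the 192 genes, and in male flower replicate 5 stands at 49.0%.

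The spread between libraries differed by tissue. The median over the 192 genes of the SD on the log2 scale was 0.337 in female flower (n = 6), 0.699 in root (n = 4), 0.848 in leaf (n = 6) and 1.15 in male flower (n = 7). Over all genes tested the medians were 0.362, 0.546, 0.791 and 0.741 in the same order. The rule chose genes that are low in root and male flower, and 121 of the 192 had at least 3 fragments in every male library. On the log2 scale the SD widens where fragments are few, so the 192 genes and all genes tested are not compared at like levels. How much this adds to the SD was not tested. Across the 192 genes, which are not independent replicates, pairs of female libraries correlated at a median of 0.910 and pairs of leaf libraries at 0.427, from 0.245 to 0.968. Leaf replicates 1 and 4 correlated with the female libraries at medians of 0.795 and 0.708 and with the other leaf libraries at 0.394 and 0.427. For leaf replicate 5 the corresponding values were 0.485 and 0.5, and for replicates 0, 2 and 3 the median with the female libraries was 0.418, 0.589 and 0.379. The leaf median of a gene can therefore fall between values far apart.

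Leaf and female flower, the 2 high tissues, were then compared within the genes. The rule keeps the difference of their medians smaller than the gap, but does not set its direction. The leaf median was higher for 149 of the 192 genes and lower for 43. It was at least 1 higher on the log2 scale for 100 genes, at least 2 higher for 34 and at least 1 lower for 10. The limma model called 73 of the 192 higher in leaf, where 19.1% of the genes tested were so called, and 3 higher in female flower, where 26.8% were. All 6 leaf libraries lay above all 6 female libraries for 76 genes, against 13.5% of the genes tested, and the opposite held for 0, against 16.5%. These counts were 48 and 3 with equal totals, where 8.8% and 23.2% of all genes had no overlap, and 62 and 2 after quantile normalization, where 12.3% and 16% had none. With libraries scaled to equal totals the median difference of all genes moved by -0.45 on the log2 scale and 44 of the 192 were called higher in leaf, against 13.1% of the genes tested, and 3 in female flower, against 34.6%. With leaf replicates 1, 2 and 4 left out, 52 were called higher in leaf and 24 in female flower, where 21.6% and 31.5% of the genes tested were. With the 5 libraries left out the counts were 63 and 7, where the shares of the genes tested were 23.3% and 32.7%.

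Among the genes whose leaf and female libraries did not overlap, Zosma47g00500 had the largest difference of medians, 3.53 on the log2 scale. The leaf libraries held 5892, 981, 5641, 6973, 2287 and 10158 scaled fragments in the order of replicates 0 to 5. The early female libraries held 540, 285 and 708, the late ones 460 and 433, and the library of conflicting labels 648. Every leaf value was above every female value, with leaf replicate 1 nearest to them. The limma estimate of leaf over female flower was a log2 fold change of 3.17 (SE 0.657, Benjamini-Hochberg adjusted p = 5.67e-04). Root held 16.6, 9.70, 43.6 and 41.5 scaled fragments, and male flower ran from 6.59 to 107 with a median of 27.8.

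Zosma527g00030 followed with a difference of medians of 3.49, and with leaf libraries at 4657, 2002, 12932, 3952, 5635 and 7114 scaled fragments for replicates 0 to 5. Female libraries lay between 288 and 704, with a median of 458, and again no library overlapped. Here leaf replicate 1 was the lowest leaf library and leaf replicate 2 the highest. The limma log2 fold change of leaf over female flower was 3.60 (SE 0.736, adjusted p = 5.09e-04, Benjamini-Hochberg adjustment). Root libraries held 6.84 to 16.3 scaled fragments.

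On the deposited scaling no gene of the 192 had all female libraries above all leaf libraries, so by the naming rule none was to be named in that direction. Of the 3 genes called higher in female flower, the 2 with the largest change are given, which were chosen after their values were seen. Zosma77g00680 stood at 699, 521 and 982 scaled fragments in the early libraries, 1434 and 1697 in the late ones and 1125 in the library of conflicting labels. Its leaf libraries held 85.0, 734, 35.1, 233, 442 and 127 for replicates 0 to 5, so that leaf replicate 1 alone reached into the female range. The log2 fold change of leaf over female flower by limma was -2.58 (SE 0.833, Benjamini-Hochberg adjusted p = 0.0136). Zosma87g00090 had leaf libraries at 36.9 to 320 scaled fragments with a median of 175 and female libraries at 259 to 897 with a median of 391, for which limma gave a log2 fold change of -1.89 (SE 0.655 and adjusted p = 0.0202). Leaf replicates 2 and 4 of this gene lay within the female range.

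**Figure D4:**
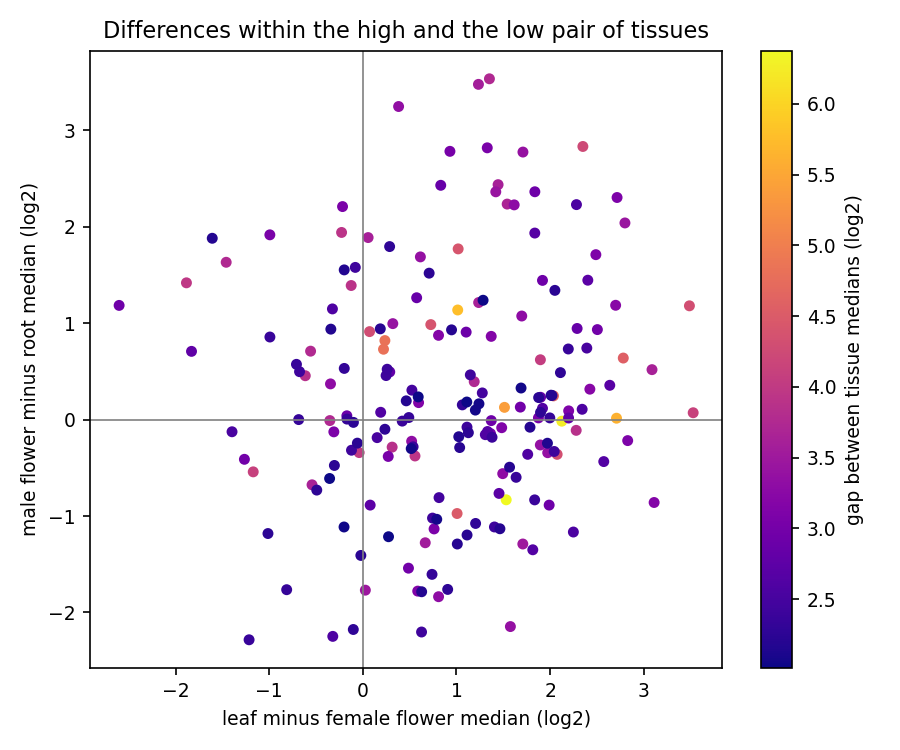
For each of the 192 genes, the leaf minus female flower median (horizontal axis, log2) and the male flower minus root median (vertical axis, log2), coloured by the gap. Most points lie to the right of 0 on the horizontal axis, where 149 genes have the higher leaf median. They spread to both sides of 0 on the vertical axis, with 108 above it on the deposited scaling. The fitted change of male flower over root was above 0 for 100 genes on the deposited scaling and for 52 with equal totals. Of all genes tested, 48.9% and 32.4% were above 0.

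Root and male flower, the 2 low tissues, were compared in the same way. The rule keeps the difference of their medians smaller than the gap, so a small difference is in part set by the choice. The direction of the difference, which the rule does not set, depended on the scaling. The median difference of male flower minus root medians was 0.10 on the log2 scale, 119 of the 192 genes lay within 1 of 0, 44 were at least 1 higher in male flower and 29 at least 1 higher in root. The limma model called 20 higher in male flower, where 25.9% of the genes tested were so called, and 17 higher in root, where 26% were. With equal totals, where the median of all genes moved by -0.90 on the log2 scale, the split was 4 higher in male flower, where 16.1% of the genes tested were so called, and 54 higher in root, where 42.8% were. On either scaling both shares of the 192 genes were below those of all genes tested. The limit that the rule puts on this difference favours such a result, so nothing is read from it. Without the 3 leaf libraries 30 were called higher in male flower, where 28% of the genes tested were. The number higher in root was 10 without root replicate 2 and 28 without male replicate 5, where 25.9% and 27.1% of the genes tested were so called. No overlap was found for 10 genes above in male flower and 3 above in root, where 21.2% and 18.4% of all genes tested had none. With equal totals these counts were 0 and 12, where the shares of all genes were 12.7% and 30.3%.

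On the deposited scaling Zosma116g00700, described above, had the largest difference of medians of male flower over root without overlap, 3.48 on the log2 scale. Root held 56.5, 38.1, 97.4 and 43.2 scaled fragments and male flower 136 to 1249, with a median of 560. By limma, male flower exceeded root by a log2 fold change of 3.18 (SE 0.701, Benjamini-Hochberg adjusted p = 6.56e-04). Both tissues stayed below the lowest leaf and female values of this gene, 5157 and 5371.

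Zosma122g00170 was next in that direction, and it is also the named gene whose leaf libraries differed most from each other. Root held 14.6, 12.7, 17.9 and 7.33 scaled fragments, and male flower ran from 34.6 to 271 with a median of 138. In leaf, replicates 0, 3 and 5 held 156, 205 and 356, of which the first and second lay within the range of male flower, and replicates 1, 2 and 4 held 9395, 25138 and 15820. Female flower lay between, with early libraries at 1509, 1188 and 939, late ones at 1931 and 1308 and the library of conflicting labels at 1735. The log2 fold change of male flower over root by limma was 2.93 (SE 1.15, Benjamini-Hochberg adjusted p = 0.035). The call was lost without any 1 of the 4 root libraries or of male replicates 2, 3, 4 and 5, with adjusted p from 0.0503 to 0.0878, with a pseudocount of 10 (0.0833), with the FPKM table (0.0826) and with equal totals (0.136).

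Zosma50g00160 and Zosma211g00230 were the genes named for root over male flower. Zosma50g00160 held 114, 71.7, 53.8 and 71.7 scaled fragments in root and 4.52 to 51.0, with a median of 22.9, in male flower. Its log2 fold change of male flower over root by limma was -1.95 (SE 0.544, Benjamini-Hochberg adjusted p = 0.00452). The groups lay side by side without overlap, with male replicate 5 nearest to root. Zosma211g00230 held 16.6, 28.4, 19.7 and 17.9 in root and 0 to 16.3, with a median of 5.79, in male flower, for which limma gave a log2 fold change of -2.19 (SE 0.656 and adjusted p = 0.00746). With a pseudocount of 10 its change was -0.99, just short of 2-fold.

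**Figure D5:**
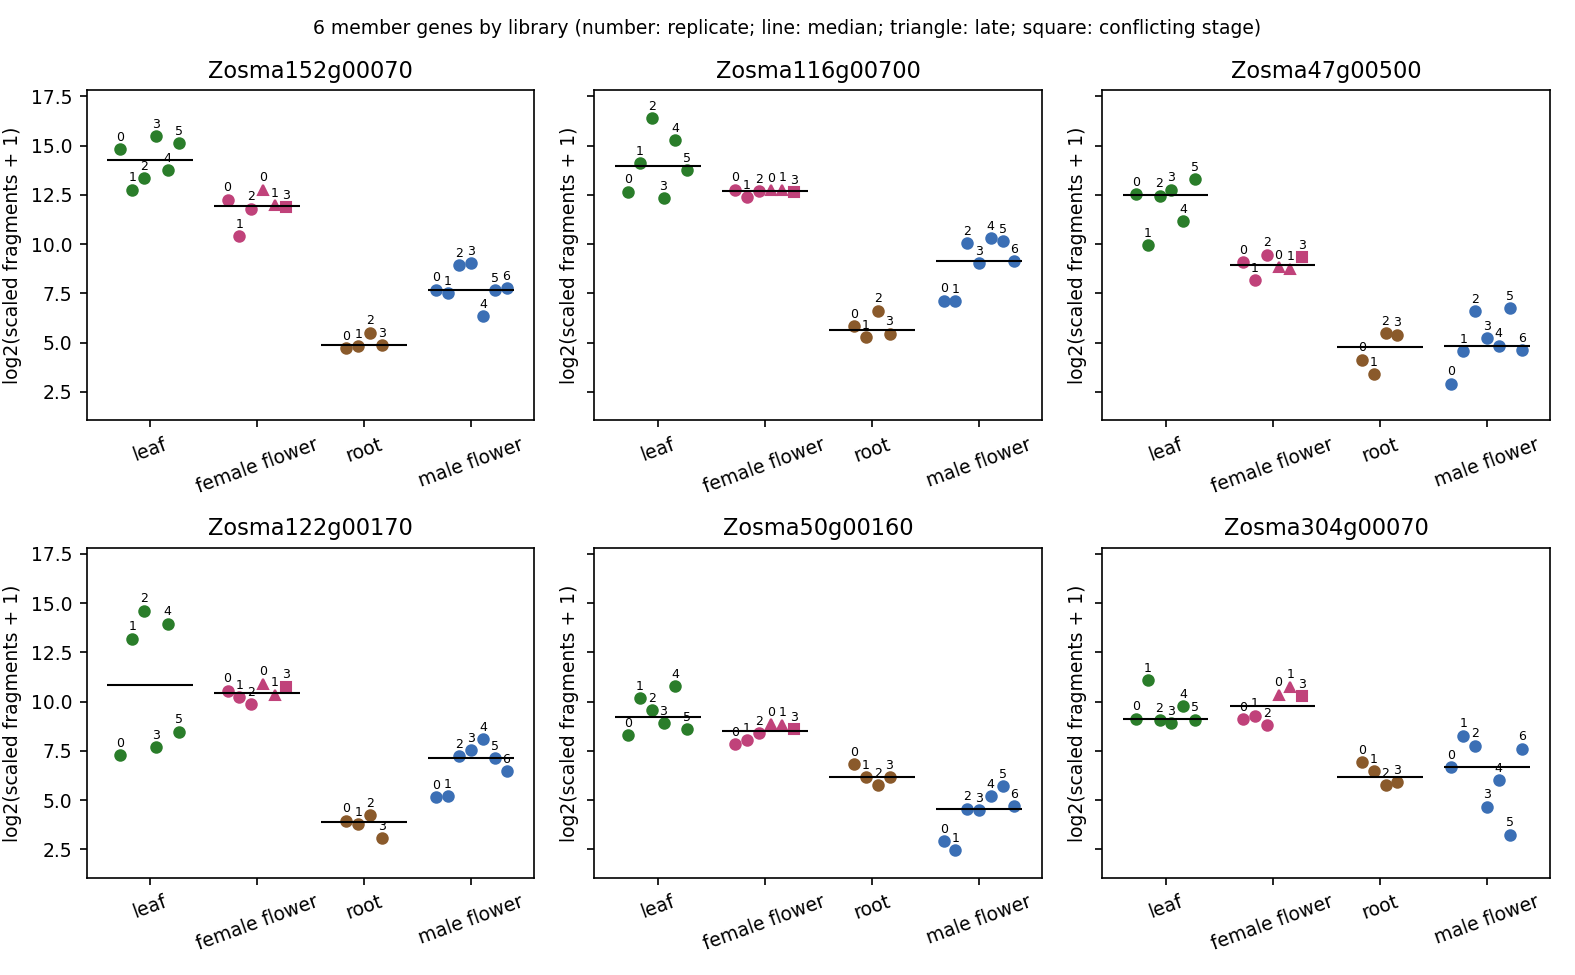
Log2(scaled fragments + 1) of 6 of the genes named in the text in each library, by tissue (points, numbers give the replicate, triangles late and squares the conflicting library, horizontal lines the tissue median). Zosma122g00170 has leaf replicates 0, 3 and 5 at 156 to 356 scaled fragments and replicates 1, 2 and 4 at 9395 to 25138, while the female libraries of each gene lie closer together.

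Between the stages of the female flower the limma model called 0 of the 192 genes in either direction, where 0.0287% of the genes tested were called higher in late and 0.0459% higher in early. At an unadjusted p under 0.05 there was 1 of the 192 higher in late and 0 higher in early, where 2.19% of the genes tested stood in each direction. With estimated library weights 6 were called higher in late, where 4.1% of the genes tested were. The rule limited this difference, so the counts are a description. The model takes 1 variance per gene over all groups, so the wider spread of leaf and male flower enters the SE between stages. Over the 192 genes the median SE of this contrast was 0.877, and the median SD within female flower was 0.337. A lack of calls therefore does not show that the stages are alike. The late minus early difference of medians, which by the rule takes the library of conflicting labels as late, had a median of 0.30 on the log2 scale, was above 0 for 138 genes and below 0 for 54, and was within 1 of 0 for 175. Both late libraries lay above the 3 early ones for 73 of the 192 genes, against 24.2% of the genes tested, and below them for 15, against 17.4%. Late replicate 0 was the highest female library for 82 of the 192 genes and for 14.1% of all genes tested, and late replicate 1 for 41 and for 25.0%.

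None of the genes named for the largest differences between stages passed the test, whose SE includes the spread of the other tissues. Zosma32g00210 held 1046, 1039 and 1821 scaled fragments in the early libraries, 2663 and 2718 in the late ones and 2034 in the library of conflicting labels, with a late minus early log2 fold change of 1.10 (SE 0.805). Zosma304g00070 held 557, 623 and 448 in the early libraries and 1312 and 1729 in the late ones, a change of 1.48 (SE 1.03), and the library of conflicting labels held 1250. In both genes that library lay between the stages. In the other direction Zosma722g00010 held 860, 601 and 668 in the early libraries and 578 and 241 in the late ones, a change of -0.91 (SE 1.45), with 235 in the library of conflicting labels. That change was -0.28 without late replicate 1 and -1.54 without late replicate 0. Zosma39g00320 held 370, 349 and 384 in early, 228 and 206 in late and 225 in the library of conflicting labels, a change of -0.76 (SE 0.731).

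The numbering of the identifiers is given as a description. The 192 carried 122 different first numbers, of 1339 in the whole table, with at most 6 of the genes under 1 first number. A first number with 6 of the genes was carried by 369 identifiers of the table. Whether genes drawn at random would give other counts was not tested. For 4 pairs, of 7 genes in all, the first numbers were equal and the second numbers 10 apart, the usual spacing in the table. Whether such numbers follow the order of genes in the genome is not given in the sources used here, and reads shared by near-identical genes leave their values uncertain.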

How the data were processed

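Per the labels' protocols, messenger RNA was enriched from total RNA with oligo(dT) beads and sequenced in pairs of 100 bases. Per the submitters' processing notes, the tools were Cuffdiff 2.2.1, Cuffnorm 2.2.1 and TopHat2 2.0.12, whose roles are not stated. The genome build, the annotation and the strand setting were not found in the labels or headers. The table deposited as counts holds a scaled signal: 99.7% to 99.8% of the non-zero values up to 1000 steps were, to within 0.01, multiples of a step that each library has. Because residues near 0 were not whole, no count-based test was run. The FPKM table deposited by the authors served for levels per length and as an alternative. It carries about the same factor per library, so it does not test the scaling.

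The 17423 genes that reached 10 in 2 or more of 22 libraries were tested. A linear model of log2(value + 1) with 5 groups was fitted in limma 3.58.1 under R 4.3.3 with robust, trended variance moderation, the female flower being the mean of early and late. Fold changes on this scale understate the change of low genes. The genes and lists were chosen with earlier results of these data known. Named are the 2 genes of widest gap, the 2 of highest FPKM, and for each of 3 comparisons up to 2 in each direction with the largest difference of medians and no overlap. Lists of genes by product name had been planned and were not analysed here, since the files hold identifiers alone. Since no label ties replicates to different plants, a p-value reflects the spread of these samples only, which may be technical. No replicates agreed within sampling noise (smallest chi-square per degree of freedom 17.7). Alternatives changed the pseudocount, filter, scaling, table, library weights, block, treatment of the library of conflicting labels, thresholds and the libraries used. The steps were tested on simulated data. Python 3.11.15, numpy 2.4.6, pandas 2.3.3 and matplotlib 3.10.9 made tables and plots.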

Additional observations from a re-analysis of the deposited data

Results flagged for a closer look

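Among 56 sets of 4 to 7 libraries examined (the shares and the 13 named genes in each tissue), 7 held a library whose distance to its nearest neighbour was large against the range of the set. The limit used gives about 1 in 20 by chance where values are normally distributed. Scaled fragments are skewed and include values of 0, so that rate need not hold here. The number of flags is therefore not read as an excess. Zosma11g00270 stood at 11.9 scaled fragments in male replicate 5, against 0 to 4.90 in the other male libraries. Zosma165g00110 stood at 107.89 in male replicate 2, against 0 to 12.5. Zosma32g00210 stood at 233 in male replicate 5, against 14.5 to 88.3. Zosma152g00070 stood at 44.4 in root replicate 2, against 25.3 to 28.5. Zosma304g00070 stood at 2198 in leaf replicate 1, against 475 to 866. On the low side, Zosma722g00010 stood at 295 in leaf replicate 5, against 473 to 570, and Zosma116g00700 at 5371 in early female replicate 1, against 6423 to 6966 in the other female libraries.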

How the results depend on the processing

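The number of genes meeting the rule was 319 with equal totals, 77 with a gap of at least 3, 117 with a lowest upper median of at least 8 and 37 with the FPKM table, on which the level of 6 is a stricter limit. Of the 192 genes, the last 3 settings kept 77, 117 and 37. Genes higher in leaf than female flower numbered 44 with equal totals. Genes higher in female flower than leaf numbered 29 with estimated library weights, where 34.4% of the genes tested were. They numbered 7 without the 5 libraries and 24 without the 3 leaf libraries. Genes higher in male flower than root numbered 4 with equal totals and 53 with library weights, where 29.2% of the genes tested were with the weights. Those higher in root than male flower numbered 54 and 27, where 33.1% were with the weights. They numbered 11 with a pseudocount of 10 and 10 with the FPKM table, where 24.4% and 22.9% of the genes tested were. Library weights gave 6 genes higher in late than early female flower, where 4.1% of the genes tested were. The cause of these shifts was not tested, except that the stricter thresholds by construction keep fewer genes. The share in root was 0.152% with genes chosen from all libraries and 0.265% without the library measured.

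With 1 replicate left out, 159 to 213 genes met the rule and 158 to 187 of the 192 were kept. Calls in all 4 contrasts ranged from 168 to 185, genes without overlap of high and low tissues from 142 to 150, genes higher in leaf than female flower from 60 to 78 and in female flower than leaf from 2 to 4. Genes higher in male flower than root ranged from 16 to 25, in root than male flower from 10 to 28, and between stages from 0 to 0. In these runs 2.55% to 3.19% of the genes tested were called in all 4 contrasts, and 2.36% to 2.85% had no overlap of high and low tissues. Leaf was called above female flower for 16.7% to 21.4% of them and below it for 22.6% to 29.7%. Male flower was called above root for 24.4% to 27% and below it for 23.9% to 27.1%. Replicate numbers did not pair libraries: deviations from group means correlated at a median of 0.0283 for 31 pairs of the same number, from -0.41 to 0.52. With the replicate number as a block 176 genes were called in all 4 contrasts, 55 higher in leaf than female flower, 3 the other way, 14 higher in male flower than root and 25 the other way, and 0 between stages. Shares of all genes tested were not taken with this block. Zosma122g00170 had an adjusted p of 0.0724 there (limma). No named fold change turned its sign under the alternatives run. The estimation of library weights stopped before it converged. Settings of the filter, weights, block and 4 tissue groups do not enter the choice of genes, the stages could not be compared with 4 tissue groups, and the changes of Zosma77g00680 and Zosma87g00090 were not recomputed under the alternatives.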
